A study of Homo sapiens with 6 samples.

Results

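Trefoil peptides, the transcription factor SPDEF, the folding enzyme AGR2 and mucins form the mucus programme of goblet cells. They were followed in LS180 cells after knockdown of CTNNB1, MYC or the long non-coding RNA MYU. Members were taken by gene symbol, and of 10 listed genes 5 had a probe set named for them on the array: TFF1, TFF2, TFF3, SPDEF and AGR2. The 5 mucins MUC1, MUC2, MUC4, MUC5AC and MUC13 had none and were not analysed here. The members are thus 5 of 14812 genes in all, and each rests on 1 probe set.

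LS180 is an established human colorectal adenocarcinoma line, known for mucus production and for an activating mutation of its own CTNNB1 gene. Total RNA was hybridised to Affymetrix arrays, 6 in all. An siRNA against CTNNB1 (beta-catenin, through which Wnt signals reach the genome), against MYC or against MYU (listed as VPS9D1-AS1) was used on 1 array each. Each of these arrays had 1 control siRNA array named for it, which gives 3 pairs. The titles number the controls of the CTNNB1 and MYC pairs 1 and that of the MYU pair 2. The sources used here do not give the siRNA sequence, dose or time, and the treatment tag of the CTNNB1 array reads CTNNB2 while its title and source name read CTNNB1.

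Goblet cells fill their granules with gel-forming mucins and secrete them together with trefoil peptides, small disulfide-rich proteins that protect and repair the mucosa. TFF3 is the trefoil peptide of intestinal goblet cells, while TFF1 and TFF2 are best known from gastric mucous cells. SPDEF is an ETS family factor that drives the maturation of secretory precursors into goblet cells, and AGR2 is a protein disulfide isomerase of the endoplasmic reticulum that mucin folding requires. In the intestinal crypt, Wnt signalling through beta-catenin and MYC maintains dividing progenitors.

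Values are on a log scale, with base 2 assumed for every fold given, and were centred within each pair, so the 2 arrays of a pair mirror each other around 0 and only their difference carries information. Expression levels are not kept, and the line's identity could not be checked on marker levels. Differences below are knockdown minus its own control. With 1 array on either side there is no replicate check and no p-value, and "higher" and "lower" describe these arrays. As a yardstick of noise, 129 genes of tissue-restricted families, among them olfactory receptors and hair keratin-associated proteins, spread with a standard deviation of 0.14 (CTNNB1 pair) or 0.11 (MYC and MYU pairs). None of the 129 was 2-fold apart in any pair, but 2 passed 1.5-fold in the CTNNB1 pair (largest 0.65) and 1 in the MYC pair (0.60). This yardstick does not cover the noise of well expressed genes. MYC itself differed by -1.18 with MYC siRNA and by -2.38 with CTNNB1 siRNA, while no probe set was named for CTNNB1. VPS9D1-AS1 differed by -0.50 with MYU siRNA, and by -0.53 with CTNNB1 and -0.24 with MYC siRNA.

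With CTNNB1 siRNA all 5 measured members were at least 2-fold higher than in the control array, against 2.80% of all genes, and 4 of 5 were at least 3-fold higher, against 0.830%. Their median difference was 2.24, and the median of all genes was 0. The order from highest to lowest was TFF2, TFF1, SPDEF, TFF3 and AGR2, and neighbours in this order lay between 0.34 and 1.18 apart. In such a bulk sample a larger share of secretory cells and more RNA per cell cannot be told apart.

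TFF2, a peptide with a pair of trefoil domains, stood at -2.18 in the control array and 2.18 in the CTNNB1 siRNA array. That is a difference of 4.36, or 20.5-fold, and rank 5 among 14812 genes. TFF1, known as an oestrogen-responsive gene and a product of gastric surface cells, stood at -1.59 and 1.59. It was 9.07-fold higher (3.18), at rank 12. TFF3 stood at -0.95 and 0.95, which made it 3.71-fold higher (1.89), at rank 75. The trefoil genes thus all lay on the same side, but TFF3, the intestinal member, had the smallest difference of them, 2.47 below TFF2.

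SPDEF stood at -1.12 in the control array and 1.12 in the CTNNB1 siRNA array. It was 4.71-fold higher (2.24), at rank 38. AGR2 stood at -0.64 and 0.64, and was 2.44-fold higher (1.29), at rank 226. All 5 differences were more than 9 times the standard deviation of the yardstick genes in this pair, from 9.04 times for AGR2 to 30.7 times for TFF2. Since the yardstick does not cover well expressed genes, these multiples describe size and are no measure of significance. The plot of values by array shows the members fanning out in this pair and lying close together in the others.

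**Figure D1:**
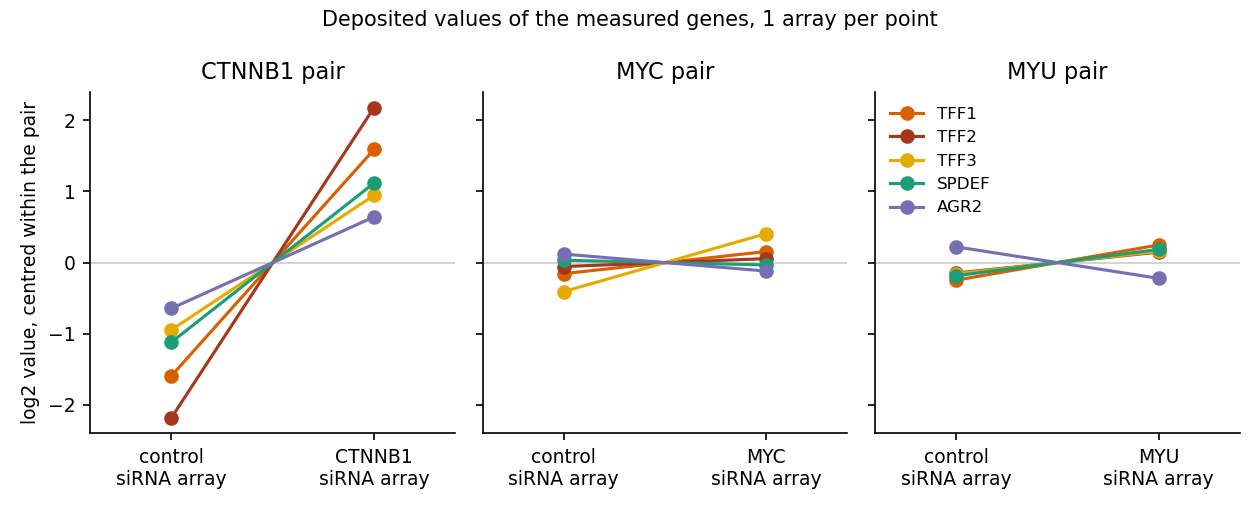
Pair-centred log2 values (y axis) of TFF1, TFF2, TFF3, SPDEF and AGR2 in the control and knockdown array of each pair, 1 array per point. In the CTNNB1 pair the knockdown values run from 0.64 for AGR2 to 2.18 for TFF2, while in the MYC and MYU pairs no member lies beyond 0.41 on either side of 0.

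With MYC siRNA 0 of 5 members were 2-fold apart in either direction, against 0.857% of all genes, and the members had no common sign. TFF3 stood at -0.41 in the control and 0.41 in the knockdown array. It was 1.76-fold higher (0.82), at rank 127, and was the only member past 1.5-fold, which 2.15% of all genes were in that direction. TFF1 stood at -0.16 and 0.16, a difference of 0.31. TFF2 stood at -0.06 and 0.06, a difference of 0.11 that is close to the yardstick's standard deviation. The order of the trefoil genes was thus the reverse of that in the CTNNB1 pair, with TFF3 first and TFF2 last. TFF1 and TFF2 lay only 0.20 apart here, so their order rests on a small gap between single arrays.

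SPDEF stood at 0.03 in the control array of the MYC pair and -0.03 in the knockdown, a difference of -0.07 that lay within the yardstick's standard deviation. AGR2 stood at 0.12 and -0.12, a difference of -0.24, with 13.7% of genes below it. The trefoil genes were above 0 in this pair and SPDEF and AGR2 were not. TFF2 (0.11) and SPDEF (-0.07) lay so near 0 that their signs carry little weight. The titles give the controls of the CTNNB1 and MYC pairs the same number, and whether they are 1 hybridisation is not known, so the values are set side by side without a measure of likeness between pairs.

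With MYU siRNA 0 of 5 members were 2-fold or 1.5-fold apart, against 0.155% and 1.88% of all genes. Smaller differences were present. TFF1 stood at -0.25 in the control and 0.25 in the knockdown array, a difference of 0.50 (1.41-fold), and 1.27% of genes were higher. SPDEF stood at -0.19 and 0.19, a difference of 0.37, with 2.98% of genes higher. TFF3 stood at -0.16 and 0.16 and TFF2 at -0.15 and 0.15. Their differences of 0.32 and 0.30 had 4.31% and 5.06% of genes above them.

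AGR2 lay on the other side in the MYU pair. It stood at 0.22 in the control and -0.22 in the knockdown array, a difference of -0.44 (1.36-fold lower), and 2.76% of genes were lower. The gap between TFF1 and AGR2 within this pair was 0.94.

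**Figure D2:**
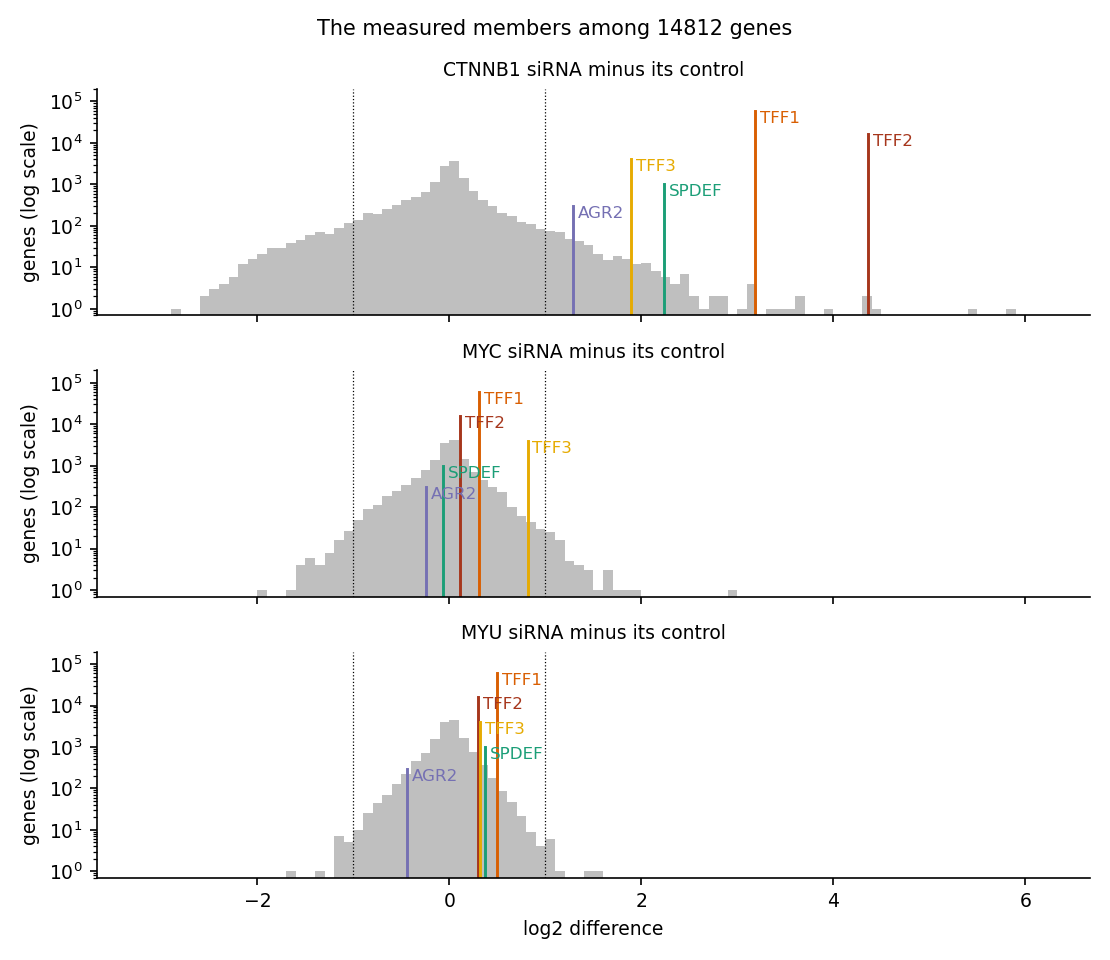
Histograms of the log2 differences of 14812 genes in bins of 0.1 (x axis log2 difference, y axis number of genes on a log scale), 1 panel per pair, with coloured lines at the measured members and dotted lines at 2-fold. In the CTNNB1 pair all 5 members lie right of the upper dotted line; in the MYC and MYU pairs all lie between the dotted lines.

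Differences in the MYU pair went weakly with gene length over all protein-coding genes, and the trefoil genes are short. Medians by length decile also varied in the CTNNB1 pair, with 0.02 in the shortest decile and -0.03 in the seventh. The median difference in the MYU pair was 0.03 in the second shortest length decile of 11911 protein-coding genes, which holds TFF1 and TFF2, and -0.03 in the eighth. Both are small beside the yardstick's standard deviation of 0.11 in the MYU pair. Within its own decile TFF1 had 2.43% of genes above it, TFF2 9.24%, TFF3 6.80% and SPDEF 3.78%, and AGR2 had 2.10% below it. With the median of the decile taken off, the values were 0.47 for TFF1, 0.27 for TFF2, 0.29 for TFF3, 0.36 for SPDEF and -0.45 for AGR2. TFF1, SPDEF and AGR2 lay outside the span from the 5th to the 95th percentile of their decile, and TFF2 and TFF3 lay inside it.

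**Figure D3:**
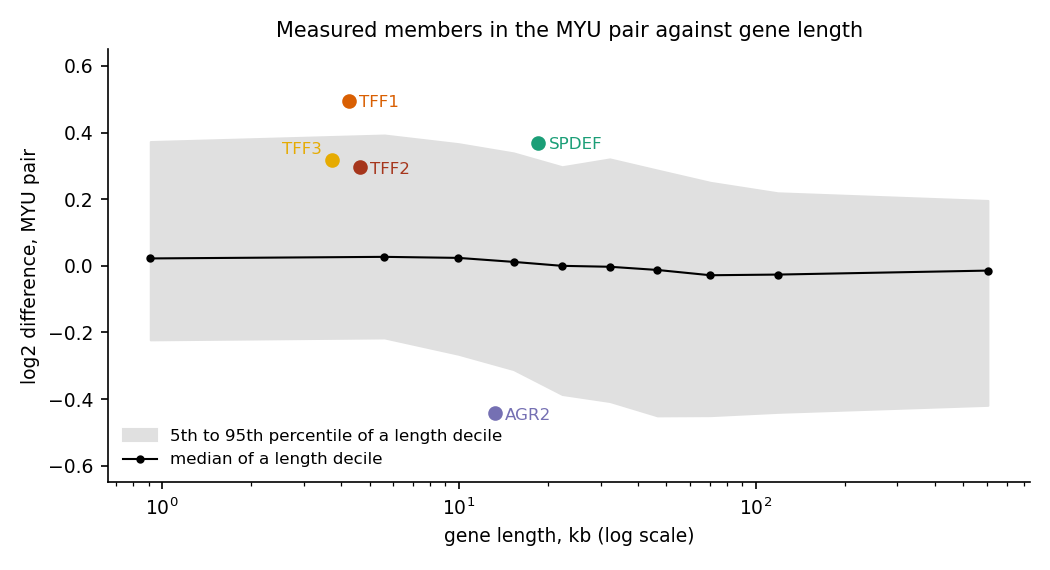
Log2 difference in the MYU pair (y axis) against gene length in kb (x axis, log scale). The line is the median and the band the 5th to 95th percentile of each decile of protein-coding genes by length; TFF1 (0.50) and SPDEF (0.37) lie above the band and AGR2 (-0.44) below it.

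The 3 trefoil genes lie next to each other on chromosome 21, in the order TFF3, TFF2, TFF1. The measured genes that flank the cluster did not share their differences. In the CTNNB1 pair UMODL1, beside TFF3, had a value of 0.03 and UBASH3A, beside TFF1, of -0.04. Beside SPDEF on chromosome 6, PACSIN1 had 0.03 and ILRUN 0.33. Beside AGR2 on chromosome 7, TSPAN13 had 0.36, and AGR3, the close paralogue of AGR2, had 0.89. AGR3 was thus the only flanking gene past 1.5-fold in this pair, with values of 0.18 and 0.02 in the MYC and MYU pairs. TSPAN13 had values of 0.50 and 0.34 there, opposite in sign to AGR2. Of 6 flanking genes 0 were 2-fold apart in any pair. Over all genes 2.80% were 2-fold higher and 4.14% lower in the CTNNB1 pair, and 0.857% and 0.155% apart in the MYC and MYU pairs. A count of 0 among 6 thus does not set these genes apart.

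**Figure D4:**
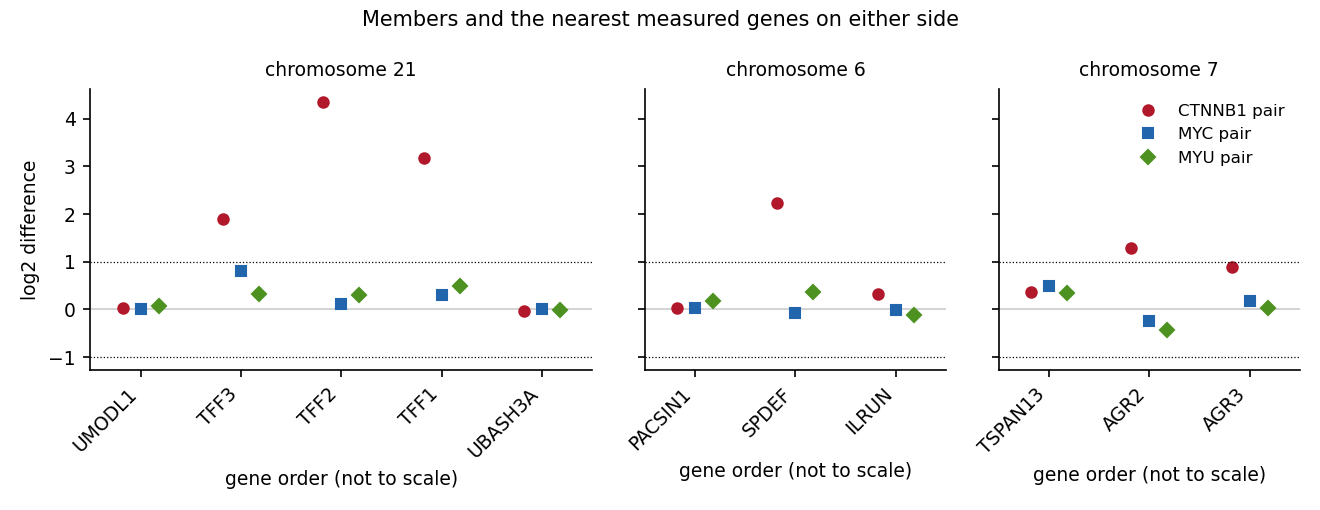
Log2 difference (y axis) of the members and of the nearest measured gene on either side, in gene order along chromosomes 21, 6 and 7 (not to scale), with 1 symbol per pair and dotted lines at 2-fold. The trefoil cluster stands between UMODL1 and UBASH3A, which lie near 0 in all 3 pairs.

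Around the mucin members, 8 further measured genes were examined. UMPS, the uridine monophosphate synthase gene beside MUC13, was at -1.38 in the CTNNB1 pair, and the other values lay between -0.57 (CHID1, beside MUC2) and 0.73 (MIR570, beside MUC4). TOLLIP, beside MUC5AC, had 0.39, HEG1, on the other side of MUC13, 0.07, and TRIM46, MIR92B and LINC00885 had 0.07, -0.24 and 0.09. These values say nothing of the mucin genes themselves.

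Promoter sequence is shown for SPDEF and AGR2, the regulator and the folding enzyme, which were both higher in the CTNNB1 pair and had opposite signs in the MYU pair. Of the 5 measured members, SPDEF and AGR2 were matched in the RefSeq promoter table of build GRCh38.p14. TFF1, TFF2 and TFF3 were not. Each run gives the 250 bases before the annotated start, on the minus strand, 5′ to 3′, at chr6:34556330-34556579 for SPDEF and chr7:16805000-16805249 for AGR2. Capitals mark GGAT, the ETS core that SPDEF is known to prefer, or its reverse ATCC, and the forkhead motif TNTTTAC or its reverse GTAAANA.
SPDEF: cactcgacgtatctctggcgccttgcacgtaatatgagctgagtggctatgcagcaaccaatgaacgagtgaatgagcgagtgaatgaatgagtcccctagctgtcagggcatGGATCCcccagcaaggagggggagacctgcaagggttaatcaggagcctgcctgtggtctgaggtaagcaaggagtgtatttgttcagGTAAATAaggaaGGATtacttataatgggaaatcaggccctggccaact
AGR2: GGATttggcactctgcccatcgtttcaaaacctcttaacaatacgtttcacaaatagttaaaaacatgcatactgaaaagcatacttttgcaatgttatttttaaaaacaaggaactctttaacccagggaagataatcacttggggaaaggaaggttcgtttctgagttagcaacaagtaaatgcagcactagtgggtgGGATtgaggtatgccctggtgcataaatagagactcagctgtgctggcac

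The SPDEF window held 3 matches to the GGAT core on either strand, 2 of which overlap as GGATCC, and the AGR2 window held 2. Of 35116 windows of the same length in the table, 70.7% held at least 1, so the core alone is common. The forkhead motif occurred once in the SPDEF window, in the reverse form from 49 to 43 bases before the start, and in 9.58% of all windows. The AGR2 window held no forkhead match. Neither window held the TCF/LEF letters CTTTGA, which 11.2% of windows hold, or the E-box CACGTG, which 6.34% hold, on either strand. SPDEF has 50.8% G or C in its window and AGR2 40.4%. These are matches of letters and not measured sites.

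The genes with the 3 differences nearest to those of a member were listed by Euclidean distance over the 3 pairs. For TFF2 these were FER1L6 (distance 0.51), the uroguanylin precursor gene GUCA2B (0.78) and the mucin-like gene MUCL3 (0.94). For TFF1 they were the adhesion molecule gene CEACAM1 (0.52), TRANK1 (0.55) and the lysosomal membrane gene CD68 (0.56). TFF3 had much nearer genes in SERINC2 (0.12), PAG1 (0.13) and the major vault protein gene MVP (0.21). SPDEF was nearest to EPS8L1 (0.31), the keratin gene KRT4 (0.37) and PLXNA2 (0.38). No member was among these nearest genes. A likeness over 3 numbers is weak, and it is dominated by the CTNNB1 pair, where differences were widest.

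Other genes of the mucus programme were then counted in the CTNNB1 pair, where 2.80% of all genes were 2-fold higher and 4.14% 2-fold lower. The lists, like the members, were chosen with earlier results of these data known. Their counts beside these shares are thus a description and not an independent comparison. Of 21 measured goblet cell products, 7 were 2-fold higher, 0 were lower and 14 differed by less. The list's median was 0.63. It holds GUCA2A, the guanylin precursor gene, which had the highest value (5.46), TSPAN1 (3.03), BCAS1 (2.25) and the lectin gene ZG16B (2.03). FCGBP, which binds TFF3 and mucins, had 0.63. Other known goblet products lay near 0, with RETNLB at 0.04 and ITLN1 at 0.07. CLCA1 had a difference of exactly 0 in both the CTNNB1 and MYC pairs, and without levels it cannot be told whether it was measurable. CLCA1, RETNLB and ITLN1 were singled out after their values were seen.

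Of 19 further mucin and mucin-like genes 5 were measured, and MUCL3 was 2-fold higher at 3.94, and the lowest of its 3 probe sets was at 3.84. MUC22 (0.15), MCAM (-0.01), MUCL1 (-0.06) and the endomucin gene EMCN (-0.04), named after its value was seen to complete the 5, lay near 0. Among 16 enzymes and carriers of mucin O-glycosylation, 4 were 2-fold higher and 0 lower, with a median of 0.30. They were GALNT5 (2.24), GALNT12 (1.28) and GALNT3 (1.23), which add the first sugar of O-glycans, and the fucosyltransferase gene FUT2 (2.19).

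Of 16 genes of granule exocytosis, 5 were 2-fold higher and 0 lower, with a median of 0.74. Among these were the vesicle SNARE gene VAMP8 (1.49), the synaptotagmin-like genes SYTL2 (1.32) and SYTL5 (1.18), and the priming factor gene UNC13B (1.18). Of 19 protein folding genes of the secretory pathway, the class to which AGR2 belongs, 2 were 2-fold higher and 1 was lower, with a median of 0.18. These were KDELR3 (1.47), a receptor that returns proteins to the endoplasmic reticulum, ERP27 (1.30), a non-catalytic relative of AGR2, and TXNDC12 (-1.10), a thioredoxin-like one. ERP44, which retains folding proteins, had 0.45.

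TFF1 and TFF2 are gastric in the normal gut, and 14 other genes of gastric surface and neck cells were measured. With CTNNB1 siRNA 5 were 2-fold higher and 0 lower, with a median of 0.20. CTSE, the cathepsin E gene, had 2.49, the calpain gene CAPN8 2.08, PSCA 2.02 and VSIG1 1.39. GKN1 and GKN2, the gastrokine genes of the gastric surface, had -0.02 and 0.06, and the pepsinogen gene PGC had 0.27. These 3 were named after their values were seen. Of 9 genes described as partners or receptors of trefoil peptides 0 were 2-fold apart in any pair. Over all genes 2.80% were 2-fold higher and 4.14% lower in the CTNNB1 pair, so 0 of 9 does not set them apart. The 9 genes had a median of 0.10 in the CTNNB1 pair, with FCGBP highest and EGFR at 0.36, CRIP1 at 0.16 and LINGO3 at -0.09.

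Regulators of the secretory lineage other than SPDEF differed less. Of 21 measured, 1 was 2-fold higher in the CTNNB1 pair, against 2.80% of all genes, and 0 were lower, against 4.14%. The list's median was 0.05, and the gene past 2-fold was CREB3L1 (1.70), a membrane-bound factor of secretory capacity. KLF4, a factor of goblet cell differentiation, had 0.85 and ETS2, another ETS family gene, -0.73. ATOH1, the factor that commits progenitors to the secretory lineage, had -0.44 with CTNNB1 siRNA, -0.10 with MYC siRNA and 0.63 with MYU siRNA. FOXA1 and FOXA2, forkhead factors of the gut, had -0.06 and 0.26 with CTNNB1 siRNA. These 3 were also named after their values were seen. Of 26 Notch pathway genes, which hold progenitors back from this lineage, 1 was 2-fold lower, the feedback gene NRARP (-1.46), and 0 were higher. Over all genes 4.14% were lower and 2.80% higher, so the Notch count does not stand apart from the background. NOTCH1 had -0.74, ADAM17, a sheddase gene, -0.21 and the glycosyltransferase gene RFNG 0.45.

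**Figure D5:**
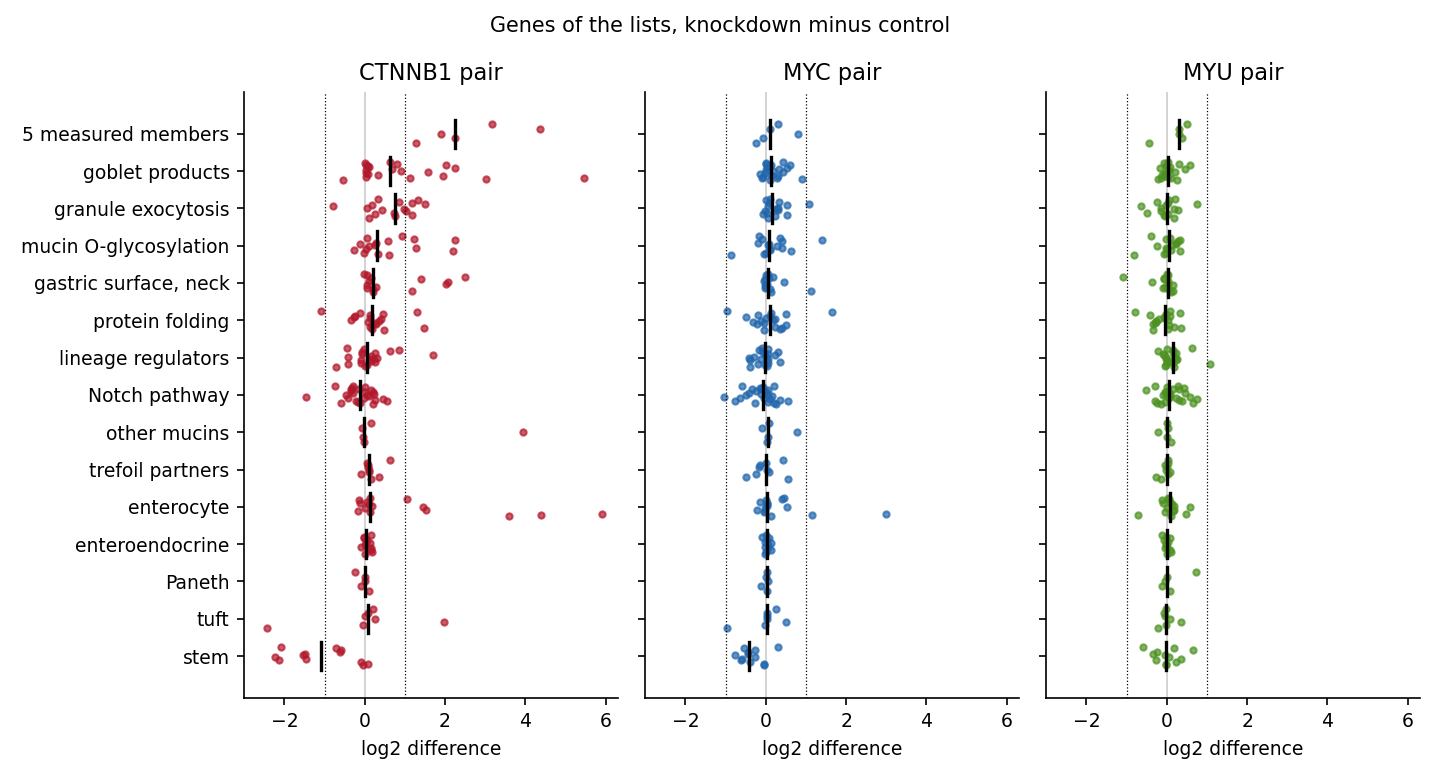
Log2 difference (x axis) of each measured gene (points) by list (rows) in the 3 pairs, with black bars at the list medians and dotted lines at 2-fold. In the CTNNB1 pair the members' median is 2.24, that of goblet products 0.63 and that of granule exocytosis 0.74; stem cell markers have a median of -1.10.

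In the MYC pair, of 21 goblet products 0 were 2-fold apart, with a median of 0.13, TSPAN1 at 0.91, ZG16B at 0.61 and GUCA2A at -0.10. GALNT5 (1.39) was 2-fold higher among 16 O-glycosylation genes, VAMP8 (1.08) among 16 exocytosis genes, and ERP27 (1.66) among 19 folding genes, against 0.412% of all genes. Of 14 gastric genes 1 was 2-fold higher, TSPAN8 (1.14), named after its value was seen, and MUCL3 had 0.77. NRARP was 2-fold lower at -1.03, against 0.446% of all genes, and ADAM17 had -0.77. Of 21 regulators 0 were 2-fold apart, and CREB3L1 had 0.22.

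In the MYU pair NEUROG3, the factor of enteroendocrine precursors, was 2-fold higher (1.08) among 21 regulators, against 0.0608% of all genes. CTSE was 2-fold lower (-1.08) among 14 gastric genes, against 0.0945%. The other lists of the mucus programme had 0 genes 2-fold apart. VAMP8 had 0.77, RFNG 0.75, ZG16B 0.58, NRARP 0.58 and ERP27 -0.78. GUCA2A, TSPAN1 and MUCL3, which stood with the trefoil genes in the CTNNB1 pair, had 0.09, -0.21 and -0.21 here.

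Markers of other intestinal cell types were measured beside the members. Over all genes 2.80% were 2-fold higher and 4.14% 2-fold lower in the CTNNB1 pair. With CTNNB1 siRNA 6 of 15 enterocyte markers were 2-fold higher and 0 lower, led by CEACAM7 (5.90), KRT20 (4.39), GUCA2B (3.60) and the carbonic anhydrase gene CA2 (1.52), with a median of 0.14 over the list. The other 9 enterocyte markers differed by less, and SI (0.14), APOA1 (-0.13) and CA4 (-0.18) lay near 0. SI, APOA1 and CA4 were named after their values were seen. Of 12 stem cell markers 6 were 2-fold lower, among them AXIN2 (-2.23), CD44 (-2.13), LGR5 (-2.09) and ZNRF3 (-1.53), and 0 were higher. The other 6 differed by less, and SOX9 (-0.09), MSI1 (-0.05) and PROM1 (0.09) lay near 0. SOX9, MSI1 and PROM1 were named after their values were seen. In the same pair 0 of 12 enteroendocrine markers were 2-fold apart, with values from -0.09 to 0.18 (CCK). Of 5 Paneth cell markers 0 were 2-fold apart in any pair, with LYZ at 0.74 in the MYU pair. The LYZ value is a mean over 2 probe sets, which differed from each other in the CTNNB1 pair (-0.48 and 0.01). Counts of 0 among 12 and 0 among 5 do not set these markers apart from all genes. Of 7 tuft cell markers ALOX5 (1.98) was higher and IL17RB (-2.43) lower in the CTNNB1 pair.

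Of 4 fibroblast markers LUM (2.78) was 2-fold higher in the CTNNB1 pair, while DCN, THY1 and TAGLN had 0.01, -0.04 and -0.30. Of 4 leukocyte markers CD68 (2.65) was higher, and CD14, LYZ and NKG7 lay between -0.23 and 0.05. In the MYC pair, where 0.412% of all genes were 2-fold higher and 0.446% lower, 2 of 15 enterocyte markers were 2-fold higher. These were CEACAM7 (7.97-fold) and KRT20 (1.16 on the log2 scale), with a list median of 0.04. Stem cell markers were below 0 in 11 of 12 cases there, with a median of -0.42 and 0 genes 2-fold apart. With MYU siRNA 0 of 15 enterocyte and 0 of 12 stem cell markers were 2-fold apart, against 0.155% of all genes. These counts do not set the markers apart. Enterocyte and stem cell markers thus also differed in the CTNNB1 and MYC pairs, and their part in the members' values was not tested. Among 661 genes whose values carry a coarser rounding step, taken to mark a high level, 8.17% were 2-fold higher in the CTNNB1 pair, against 2.80% of all genes. Of the same 661 genes 16.5% were 2-fold lower, against 4.14% of all genes.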

How the data were processed

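Per the labels' protocols, biotin-labelled total RNA from 6 LS180 samples went through a standard Affymetrix workflow. The sources used here name no background correction, normalization or summarisation. The deposited log2 values of 44629 probe sets were centred by the authors within each pair, read from the values: both arrays of a pair add up to 0 within 1e-06 for every probe set. The log base was not stated and was taken as 2. The platform annotation names 1 gene for 15835 probe sets and several for 0, and 28794 are unnamed here. All 15835 gene identifiers matched the GRCh38.p14 gene table, giving 14812 genes.

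A gene's value is the mean over its probe sets of knockdown minus control. Genes were counted at 2-fold, and 1.5-fold and 3-fold were alternatives. No test was run, since each group has 1 array. The number of arrays limits the precision. Members and lists were chosen with earlier results of these data known. Named are all members, up to 4 genes per list by largest absolute difference in any pair, the flanking genes, the 3 nearest genes of TFF1, TFF2, TFF3 and SPDEF, and the targeted transcripts. Other genes are named where the text says that they were chosen after their values were seen. Uncharacterised symbols were left out. Promoter windows were searched on both strands for letters only. The calculations were tested on simulated data with known differences. Python 3.11.15, numpy 2.4.6, pandas 2.3.3 and matplotlib 3.10.9 were used.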

Additional observations from a re-analysis of the deposited data

Results flagged for a closer look

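AGR2 had opposite signs in different pairs, 1.29 with CTNNB1 siRNA and -0.44 with MYU siRNA, both beyond 3 standard deviations of the yardstick genes. That yardstick does not cover well expressed genes, and 2.76% of all genes were lower than AGR2 in the MYU pair. Each sign rests on 1 pair of arrays, and the difference between the pairs was not tested, here or for the genes that follow. Genes of the lists are given where they were 1.5-fold higher in at least 1 pair and 1.5-fold lower in another. CTSE had 2.49 with CTNNB1 siRNA and -1.08 with MYU siRNA. ERP27 had 1.3 with CTNNB1 and 1.66 with MYC siRNA, and -0.78 with MYU siRNA. KRT20 had 4.39 and 1.16 with CTNNB1 and MYC siRNA and -0.73 with MYU siRNA. OLFM4, a stem cell gene, had -0.59 with CTNNB1 and 0.66 with MYU siRNA. PAPSS2, which makes the sulfate donor used for mucins, had 0.61 with CTNNB1 siRNA, -0.86 with MYC siRNA and -0.82 with MYU siRNA. OLFM4 and PAPSS2 were named after their values were seen.

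Differences of at least 2-fold also occurred among the 28794 unnamed probe sets. They numbered 677 with CTNNB1 siRNA, 131 with MYC siRNA and 21 with MYU siRNA.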

How the results depend on the processing

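The members' 15 differences kept their sign under each alternative, and moved by at most 0.00773 when arrays were centred on their medians. Taking the probe set nearest to or farthest from 0 changed none of them, since each member has 1 probe set, and moved other named genes by at most 0.60. The median of the gene-length decile, an alternative chosen after seeing the data, moved the members by at most 0.03 in the MYU pair. At 1.5-fold 1 member (TFF3) was higher in the MYC pair, against 0 at 2-fold, and at 3-fold 4 of 5 members were higher in the CTNNB1 pair.

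The background share depended more on the genes chosen. Over all probe sets, 1.70% were 2-fold higher and 2.23% lower in the CTNNB1 pair, 0.264% lower in the MYC pair and 0.0538% lower in the MYU pair. Over genes with the coarser rounding step, higher and lower shares were 8.17% and 16.5% with CTNNB1 siRNA, 0.756% and 1.97% with MYC siRNA and 0.303% and 0.151% with MYU siRNA. That this step marks a high level could not be checked without levels. No paired analysis was possible because each pair holds 1 array a side. Another control array, quantile normalization and a filter on low values were not run, because the values are centred within pairs. The noise of well expressed genes is unknown.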
